A study of Mus musculus with 6 samples.

Results

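This section describes the metallothionein genes Mt1 and Mt2, the metal-sensing transcription factor gene Mtf1 and 7 zinc transporter genes in primary cancer-associated fibroblasts (CAFs) after silencing of Stat3. The members were taken by gene symbol from the table of counts, and all 10 were found among its 24015 symbols. The set was chosen by role, zinc binding, sensing and transport, after the measured levels of Mt1 and Mt2 had come up as lower in this same comparison. The effect of the siRNA on its members is therefore a description, and the calls that fits over all genes gave for them, counted below, are not independent evidence of it. The CAFs, the fibroblasts of the tumour stroma, were taken into primary culture from mammary tumours that arise in BalbC mice carrying NeuT, an activated rat Her2/neu transgene. Of the 6 samples, 3 were treated with nanoparticles carrying control siRNA and 3 with nanoparticles carrying anti-Stat3 siRNA, all at 1 ug/mL for 72 hours. Poly(A) RNA of each sample was sequenced, which gave 12998168 to 18683852 counts per sample. A control and an anti-Stat3 sample with the same number resembled each other in how they departed from their groups, and are treated below as a pair. The labels do not give the age of the mice, whether tumours were pooled or what the samples of a pair share. Nor do they say that replicates are separate cultures or animals, so a p-value here reflects no more than how these samples vary, possibly for technical reasons.

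Metallothioneins are small proteins rich in cysteine that bind zinc and copper and buffer the free metal in the cell. When free zinc rises, MTF1 binds metal response elements in the promoters of metallothionein genes and of Slc30a1 and raises their transcription. Metallothionein genes are also known to be induced by glucocorticoids and, in liver, by IL-6, which signals through STAT3. Zinc transporters form 2 families: SLC39 (ZIP) proteins bring zinc into the cytosol, from outside or from organelles, and SLC30 (ZnT) proteins move it out of the cytosol, to the outside or into organelles.

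The promoters of Mt1, Mt2 and Slc30a1 are shown because Mt1 and Mt2 were both lower in each pair of samples and Slc30a1 is a known target of the same metal sensor. Sequences are from RefSeq on the build GRCm38.p6, whereas the submitters' processing notes name mm9, and 8 of the 10 members had an entry (not Slc39a14 and Slc39a6). Each line gives the 250 bases before the annotated start, all on the plus strand, at chr8:94178839-94179088 for Mt1, chr8:94172368-94172617 for Mt2 and chr1:191906531-191906780 for Slc30a1. Capitals mark the core of the metal response element, searched as TGCACNC and as TGCGCNC on both strands.
Mt1 promoter: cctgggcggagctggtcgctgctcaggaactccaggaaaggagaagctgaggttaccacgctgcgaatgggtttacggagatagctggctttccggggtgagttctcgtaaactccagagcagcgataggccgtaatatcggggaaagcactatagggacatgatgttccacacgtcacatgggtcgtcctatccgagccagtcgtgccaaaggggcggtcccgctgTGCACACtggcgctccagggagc
Mt2 promoter: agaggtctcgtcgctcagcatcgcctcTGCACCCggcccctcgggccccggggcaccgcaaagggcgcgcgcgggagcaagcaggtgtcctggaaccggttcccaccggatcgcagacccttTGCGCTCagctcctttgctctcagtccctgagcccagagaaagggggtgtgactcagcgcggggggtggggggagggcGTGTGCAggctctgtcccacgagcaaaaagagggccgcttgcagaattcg
Slc30a1 promoter: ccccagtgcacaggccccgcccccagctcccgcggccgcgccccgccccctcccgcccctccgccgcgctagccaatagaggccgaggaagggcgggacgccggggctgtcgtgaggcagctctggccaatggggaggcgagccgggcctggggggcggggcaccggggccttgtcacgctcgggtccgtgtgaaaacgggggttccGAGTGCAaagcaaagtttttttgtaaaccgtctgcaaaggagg
Over the 300-base window of the table, which runs from 250 bases before to 50 bases after the start, Mt2 held 4 matches, Mt1 held 3 and Slc30a1 held 2. Of the other members with an entry, Slc30a4 held 3 matches, as many as Mt1, Slc30a5 held 1, 1 of the 2 annotated Slc39a8 promoters held 1, and Mtf1 and Slc39a10 held none. Of the matches in the 3 genes shown, 1 in Mt2, 1 in Slc30a1 and 2 in Mt1 lie after the annotated start and so are not in the lines above. Annotated coding transcripts of Mt1 run from 549 to 1085 bases, and which start these cells use was not tested. The positions and counts of matches therefore hold for the annotated start alone. The 2 of Mt1 fall in a 25-base stretch from base 3 to base 27 after that start.
Mt1 after the start: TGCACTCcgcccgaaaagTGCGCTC
Of 32851 promoter windows in the table, 25.7% held at least 1 such match, 7.11% at least 2 and 0.517% at least 4. A STAT site of the form TTCNNNGAA was found in 8.3% of all windows and in neither the Mt1 nor the Mt2 window, which says only that these letters are not in these 300 bases. Among the members with an entry it occurred in 1 of the 2 annotated Slc39a10 promoters. A glucocorticoid half-site, TGTTCT on either strand, was found in 18.97% of all windows, in those of Mtf1 and Slc30a5 and in neither the Mt1 nor the Mt2 window.

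Stat3, the targeted gene, stood at 220.4, 359 and 405 CPM (counts per 1000000, scaled with TMM factors) in the controls of pairs 1 to 3, against 34.7, 81.9 and 78.9 CPM with anti-Stat3 siRNA. The fibroblast marker list was present in every sample, with all 14 genes tested. Its summed level was 44204, 94034 and 110652 CPM in the controls of pairs 1 to 3. With anti-Stat3 siRNA it was 50896, 67568 and 83437 CPM, higher in pair 1 and lower in pairs 2 and 3. The summed macrophage and epithelial markers differed mainly between pairs. The summed level of 19 macrophage markers was 44.0 to 48.4 CPM in pair 1, 1749.7 to 1818 CPM in pair 2 and 2517 to 2904 CPM in pair 3. That of 19 epithelial or tumour cell markers was 237 to 250.1 CPM in pair 1, 606 to 642 CPM in pair 2 and 91.0 to 91.8 CPM in pair 3. The summed level of 8 endothelial markers was higher with anti-Stat3 siRNA in each pair. It was 8.25, 30.9 and 24.5 CPM in the controls of pairs 1 to 3, against 10.03, 43.0 and 30.4 CPM. Of the 5 that were tested, 3 were higher in all pairs and 1 was lower. The median level of the 8 was low: it fell in pair 1, from 0.71 to 0.41 CPM, and rose in pairs 2 and 3. Blocked DESeq2 called 0 of 14 tested markers for fibroblasts, 0 of 18 for macrophages and 0 of 5 for endothelial cells between the siRNAs. Of 16 for epithelial cells it called 1, Wfdc2, which was lower (adjusted p = 0.042). Over all genes it called 1.66%, and 0.783% lower, so counts in lists this short say little about cell content. In bulk samples fewer cells of a type and less RNA per cell cannot be told apart.

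In each pair Mt1 and Mt2 were lower with Stat3 silenced, at 38.7% to 46.5% of the control on average, although the pairs started from different levels. In pairs 1 to 3, Mt1 stood at 91.0, 54.5 and 258 CPM under control siRNA, against 47.9, 26.1 and 102 CPM with Stat3 silenced. The groups overlapped, since the anti-Stat3 sample of pair 3 lay above the controls of pairs 1 and 2. The log2 changes of Mt1 (anti-Stat3 over control) were -0.93, -1.06 and -1.33, a mean of -1.11 ± 0.21 (SD, n = 3 pairs), which leaves 46.5% of the control level. Mt2 stood at 91.2, 54.5 and 201 CPM under control siRNA, against 38.2, 23.2 and 64.9 CPM with Stat3 silenced. Here too the anti-Stat3 sample of pair 3 lay above the control of pair 2, though below that of pair 1. The log2 changes of Mt2 were -1.25, -1.23 and -1.63, a mean of -1.37 ± 0.22 (SD, n = 3 pairs), which leaves 38.7% of the control level.

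**Figure D1:**
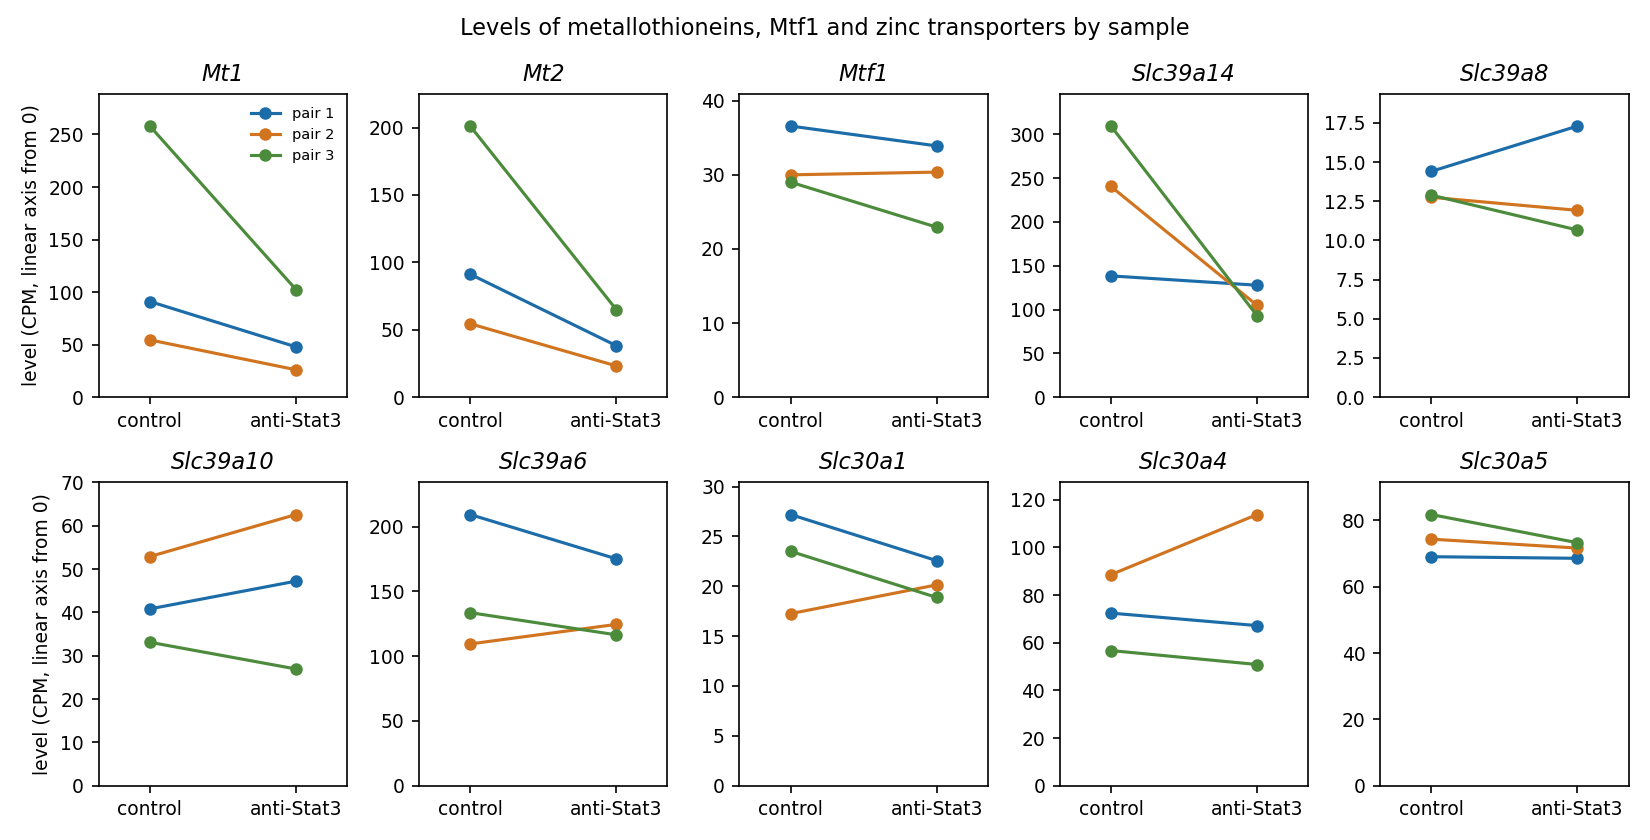
Level of each gene in CPM (linear axis from 0) in the control and anti-Stat3 siRNA samples, with a line joining the samples of a pair. The lines of Mt1 and Mt2 go down in each pair from control levels of 54.5 to 258 CPM and 54.5 to 201 CPM, those of Slc39a14 start apart and end together, those of Slc30a5 go down by little in each pair, and those of the other 6 members differ in direction between pairs.

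The share of Mt2 among the reads of both genes was lower in each pair with Stat3 silenced. It was 50.04%, 49.98% and 43.8% in the controls of pairs 1 to 3, and 44.4%, 47.1% and 38.8% after anti-Stat3 siRNA. The exact 95% binomial intervals of the 2 samples did not overlap in pair 1 (48.1 to 51.9% against 41.7 to 47.03%) or pair 3 (42.7 to 44.9% against 36.7 to 40.9%). They overlapped in pair 2, at 47.8 to 52.2% against 43.4 to 50.8%. These intervals cover counting error only. The differences within pairs 1 to 3 were -5.68, -2.92 and -5.01 percentage points, and the group means were 47.9% ± 3.6 and 43.4% ± 4.2 (SD, n = 3 each). Mt1 and Mt2 resemble each other in sequence, which leaves the share uncertain, with the counting of reads that match both not given in the sources used here. Mt3 and Mt4, the other metallothionein genes, had 1 and 0 counts over all 6 samples together.

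**Figure D2:**
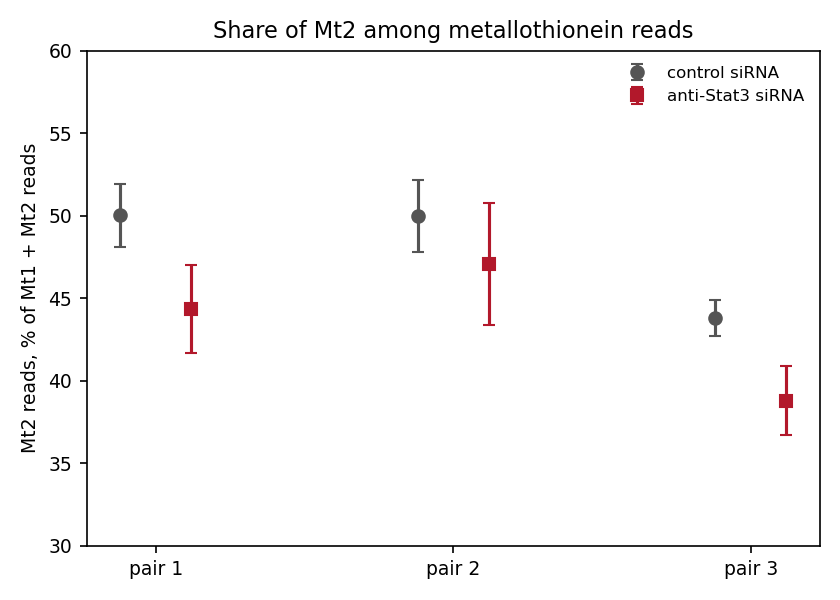
Mt2 reads as a percentage of Mt1 and Mt2 reads in each sample, with exact 95% binomial intervals as bars (the axis starts at 30%). The anti-Stat3 sample lies below its control in each pair, and the bars overlap in pair 2 alone.

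Slc39a14 encodes ZIP14, an importer of zinc, iron and manganese known to be induced by IL-6 in liver. It was the member whose groups did not overlap, and its difference varied most between pairs. In pairs 1 to 3 its level was 138, 241 and 309.6 CPM under control siRNA, against 128, 105 and 92.9 CPM with Stat3 silenced. The controls differed 2.24-fold between the highest and the lowest, whereas the anti-Stat3 samples differed 1.38-fold. The log2 changes were -0.12, -1.20 and -1.73, with a mean of -1.02 ± 0.82 (SD, n = 3 pairs). The order of its control levels over the pairs was that of the summed macrophage markers, of the summed fibroblast markers and of Stat3. The anti-Stat3 levels of Slc39a14 had the reverse order. The part of the cell content in the change of Slc39a14 was not tested.

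Mtf1 and the other 6 transporters had mean pair changes between -0.14 (Mtf1) and 0.05 (Slc39a10), and no single pair change of theirs lay outside -0.34 to 0.36. Mtf1 stood at 36.6, 30.01 and 29.0 CPM under control siRNA, against 33.9, 30.4 and 22.9 CPM with Stat3 silenced. Its log2 change in edgeR with the pair as a block was -0.14 ± 0.12 (SE). The groups overlapped, and pair 2 differed in sign from the others.

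Among the importers, Slc39a6 (ZIP6) stood at 209, 109 and 134 CPM under control siRNA, against 175, 125 and 116 CPM with Stat3 silenced. Slc39a10 (ZIP10), a close relative of ZIP6, stood at 40.8, 52.9 and 33.1 CPM under control siRNA, against 47.2, 62.6 and 26.9 CPM with Stat3 silenced. Slc39a8 (ZIP8), the closest relative of ZIP14, stood at 14.4, 12.8 and 12.9 CPM under control siRNA, against 17.3, 11.9 and 10.7 CPM with Stat3 silenced. For each of these 3 genes the pair changes had both signs and the groups overlapped. The fitted log2 changes with the pair as a block were -0.09 ± 0.12 for Slc39a6, 0.06 ± 0.14 for Slc39a10 and -0.03 ± 0.15 for Slc39a8 (SE, edgeR).

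Among the exporters, Slc30a1 (ZnT1), which sits in the plasma membrane and is an MTF1 target, stood at 27.2, 17.3 and 23.5 CPM under control siRNA, against 22.6, 20.1 and 18.9 CPM with Stat3 silenced. It was thus lower in pairs 1 and 3 and higher in pair 2, unlike Mt1 and Mt2. Slc30a4 (ZnT4), which loads vesicles with zinc, stood at 72.4, 88.6 and 56.7 CPM under control siRNA, against 67.2, 114 and 50.9 CPM with Stat3 silenced. Slc30a5 (ZnT5), which supplies zinc to enzymes of the secretory pathway, stood at 69.1, 74.4 and 81.8 CPM under control siRNA, against 68.6, 71.7 and 73.3 CPM with Stat3 silenced. The fitted log2 changes were -0.12 ± 0.14 for Slc30a1, 0.03 ± 0.13 for Slc30a4 and -0.07 ± 0.10 for Slc30a5 (SE, edgeR with the pair as a block).

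**Figure D3:**
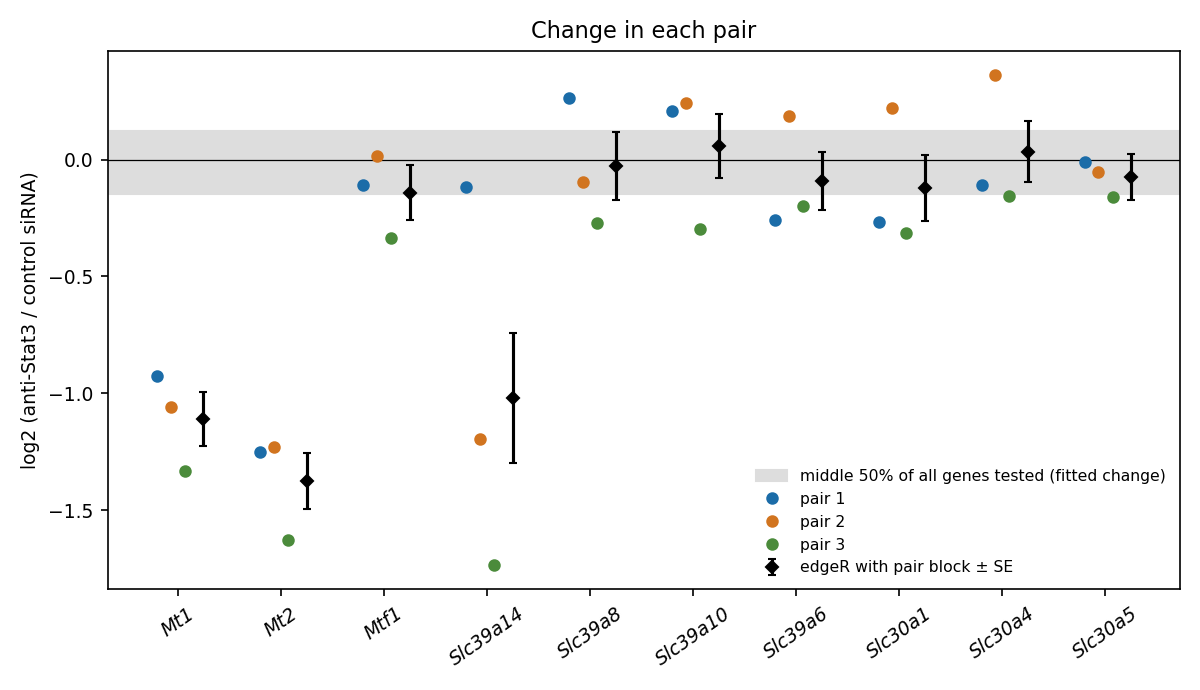
Log2 of anti-Stat3 over control siRNA in each pair (coloured points) and the change fitted by edgeR with the pair as a block (black diamonds, bars are SE), with the middle 50% of fitted changes over all genes tested in grey. Mt1 and Mt2 lie near or below -0.93 in each pair, Slc39a14 spreads from -0.12 to -1.73, and the fitted values of the other 7 members lie between -0.14 and 0.06.

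All 10 members passed the filter on low counts. Fitted with the group as its only term, the quasi-likelihood test of edgeR called none of them at an adjusted p of 0.05, and 0% of the 13284 genes tested were called. At an unadjusted p under 0.05 that fit had 2 members, Mt2 and Slc39a14, and 1.77% of all genes. DESeq2 with the group alone called 0 members and 0.128% of all genes. With the pair as a block, edgeR called 2 members, Mt1 and Mt2, both lower, where 0.0602% of all genes were called and 0.0376% were called lower. Limma-voom with the block gave the same numbers. In blocked edgeR the fitted log2 changes of Mt1 and Mt2 were -1.11 ± 0.12 and -1.38 ± 0.12 (SE), against -1.19 ± 0.71 and -1.46 ± 0.57 with the group alone. DESeq2 with the block called the same 2 members, where 1.66% of all genes were called and 0.783% were called lower. At an unadjusted p under 0.05 blocked edgeR had 3 members and 10.8% of all genes. All of these counts come from the comparison that led to the choice of members and support nothing further. The calls in blocked edgeR were lost without pair 2 or pair 3: without pair 1 it called 3 members (Slc39a14 in addition) and 5.2% of all genes, without pair 2 none and 0.0225%, and without pair 3 none and 0%. Blocked DESeq2 called 3, 2 and 2 members in these cases, and 3.19%, 0.105% and 0.147% of all genes. In edgeR with the group alone, leaving out the control of pair 1 gave 0 members and 0.294% of all genes. With the group alone, the log2 change of Mt1 was -0.30 without the control of pair 3 and -1.87 without the anti-Stat3 sample of pair 3, each of which breaks a pair. Of the members, 4 (Mt1, Mt2, Slc39a14 and Slc30a5) were lower in all 3 pairs and 0 were higher, where 16.4% and 17.3% of all genes were. The groups did not overlap for 1 member, Slc39a14, which was lower, where 2.23% of all genes were lower and 2.45% higher without overlap. The median log2 change over the members was -0.11 in blocked edgeR, beside -0.0053 over all genes tested.

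The level of a member in a pair, whatever the siRNA, was not used to choose the genes. The numbers were taken as pairs, however, because same-numbered samples resembled each other over all genes in these data. A test between pairs was therefore bound to call many genes. In edgeR with group and pair as terms, 5 of the 10 members differed between pairs, where 41.5% of all genes did. The count is near that share and shows nothing particular to the members. Mt1 (adjusted p = 1.5e-04) and Mt2 (adjusted p = 5.1e-04) were highest in pair 3 and lowest in pair 2 in both groups. The highest control level of Mt1 was 4.73-fold the lowest, and the highest anti-Stat3 level 3.93-fold the lowest. For Mt2 these ratios were 3.69 and 2.80. Slc39a10 (adjusted p = 0.0114) and Slc30a4 (adjusted p = 0.0105) had the opposite order in both groups, highest in pair 2 and lowest in pair 3, which was that of the summed epithelial markers. Slc39a6 (adjusted p = 0.0155) was highest in pair 1. The order of the pairs for Mt1 and Mt2 was not that of the summed macrophage markers, and it was the reverse of that of the summed epithelial markers. The part of these markers in the level of the members was not tested. Without the anti-Stat3 sample of pair 3, Mt1 (adjusted p = 0.0038) and Mt2 (adjusted p = 0.0054) were called and Slc39a10, Slc39a6 and Slc30a4 were not (adjusted p = 0.058, 0.056 and 0.073), with 20.6% of all genes called. Without the control of pair 1, Slc39a6 was not called (adjusted p = 0.109), with 36.1% of all genes called. Without the anti-Stat3 sample of pair 1, Slc39a14 was also called (adjusted p = 0.0018), with 45.2% of all genes called. Leaving out the control of pair 2 gave the same number of members, 5, and 32.7% of all genes, and limma-voom gave 5 members and 42.2%.

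Levels can be compared between genes only per transcript length, here CPM per kb of the median annotated protein-coding transcript. In the controls Mt2 had 257 ± 170 and Mt1 213 ± 171 CPM per kb (SD, n = 3), which did not differ beyond their spread, and the order of the pair also depends on the transcript chosen (549 to 1085 bases for Mt1, 388 to 511 for Mt2). Slc39a14 followed with 109 ± 41, Slc39a6 with 38.8 ± 13.4 and Slc30a5 with 25.4 ± 2.2 CPM per kb. The spread of Slc39a14 over the samples overlapped those of Mt1 and Mt2, that of Mt1 also reached Slc39a6, and Slc39a6 and Slc30a5 overlapped. Within each control sample, at these transcript lengths, Mt1 lay above Slc39a6 and Slc39a6 above Slc30a5. Slc39a14 lay above Mt1 in the control of pair 2 and below it in those of pairs 1 and 3. Slc30a4 had 16.8 ± 3.7 and Slc39a10 7.68 ± 1.81 CPM per kb. Slc30a1 (4.3 ± 1.0), Mtf1 (4.2 ± 0.5) and Slc39a8 (3.99 ± 0.27) were the lowest and did not differ beyond their spread. After anti-Stat3 siRNA Mt1 and Mt2 had 92.9 ± 62.1 and 93.6 ± 47.0 and Slc39a14 51.7 ± 8.5 CPM per kb, still the highest of the members.

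The rest of the zinc transporters and metallothioneins showed no change that passed a test. Of 20 such genes, 10 were tested and the other 10, Mt3 and Mt4 among them, had at most 1.41 CPM in any sample. In blocked edgeR their log2 changes ran from -0.36 to 0.24, with a median of -0.07. None was called in edgeR with or without the block or in blocked DESeq2, and 0 had an unadjusted p under 0.05 in either edgeR fit. The smallest p values were those of Slc39a11 (ZIP11), at 29.2, 21.0 and 29.8 CPM under control siRNA against 31.6, 25.3 and 37.5 CPM with Stat3 silenced, and of Slc30a6 (ZnT6), the partner of ZnT5 in a heterodimer. Their log2 changes were 0.24 ± 0.11 (adjusted p = 0.49) and -0.20 ± 0.11 (adjusted p = 0.56; SE, blocked edgeR).

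Other genes that MTF1 is known to act on, and genes of copper, iron and glucocorticoid biology, gave 7 calls among the 62 tested genes of the 5 lists together, all of them lower and all in blocked DESeq2, where 0.783% of all genes were called lower. Blocked edgeR and edgeR with the group alone called 0 of the 62. At an unadjusted p under 0.05 they had 17 and 2 of the 62, beside 10.8% and 1.77% of all genes. The lists were chosen with earlier results of these data known, so the counts over them are a description and support nothing further. Of 7 other MTF1 targets, Ndrg1, a growth arrest gene also known to be induced by hypoxia, fell by 1.00 ± 0.19 on the log2 scale (SE, DESeq2 adjusted p = 4.9e-05), and 6 did not pass. Its level was 60.6, 102 and 209 CPM under control siRNA, against 32.9, 36.9 and 132 CPM with Stat3 silenced. The median over these 7 targets was 0.07 in blocked edgeR. Pgf, a placental growth factor, had a log2 change of -0.56 ± 0.28 that did not pass (DESeq2 adjusted p = 0.59).

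Among 12 copper genes, Cp, the copper-carrying ferroxidase ceruloplasmin and an acute phase protein, fell by 0.78 ± 0.17 on the log2 scale (SE, DESeq2 adjusted p = 0.0014). Slc31a2, a copper transporter, had a log2 change of 0.41 ± 0.18 (DESeq2 adjusted p = 0.36), with groups that did not overlap. The remaining copper genes did not pass, and the list's median was 0.05. Among 21 iron genes, blocked DESeq2 called 2, Steap4 and Lcn2, both lower. Of the 21, 9 were lower in all 3 pairs and 1 was higher, where 16.4% and 17.3% of all genes were. The list's median was -0.15 in blocked edgeR. Hp was not called (DESeq2 adjusted p = 0.20), with pair changes of -0.40, -2.88 and -4.24 and groups that did not overlap. Steap4, a metalloreductase, stood at 2.84, 17.7 and 7.61 CPM under control siRNA, against 1.63, 5.05 and 1.61 CPM with Stat3 silenced, a log2 change of -1.65 ± 0.35 (DESeq2 adjusted p = 6.2e-04). Lcn2, which binds iron-carrying siderophores, fell by 0.62 ± 0.14 on the log2 scale (DESeq2 adjusted p = 0.0019), from control levels of 230.1, 1069 and 29.8 CPM. The order of these over the pairs was that of the summed epithelial markers, as it was for Cp. The part of those markers in both changes was not tested.

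Of 13 tested genes known to respond to glucocorticoids, 3 fell in blocked DESeq2, 0 rose, 10 did not pass, and the median was -0.19. Angptl4, an inhibitor of lipoprotein lipase, fell by 1.24 ± 0.19, Ddit4, an inhibitor of mTORC1, by 0.74 ± 0.15, and Sgk1, a kinase, by 0.52 ± 0.14 on the log2 scale (SE, DESeq2 adjusted p = 2.0e-07, 5.3e-04 and 0.016). Angptl4 and Ddit4 are also known to be induced by hypoxia. Of the 13, 7 were lower in all 3 pairs and 3 were higher, where 16.4% and 17.3% of all genes were. Over the 62 genes, blocked DESeq2 called 7 without pair 1, 1 without pair 2 and 2 without pair 3. The shares over all genes in these cases were 3.19%, 0.105% and 0.147%. Blocked edgeR called 9, 0 and 0 of the 62, beside 5.2%, 0.0225% and 0% of all genes.

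**Figure D4:**
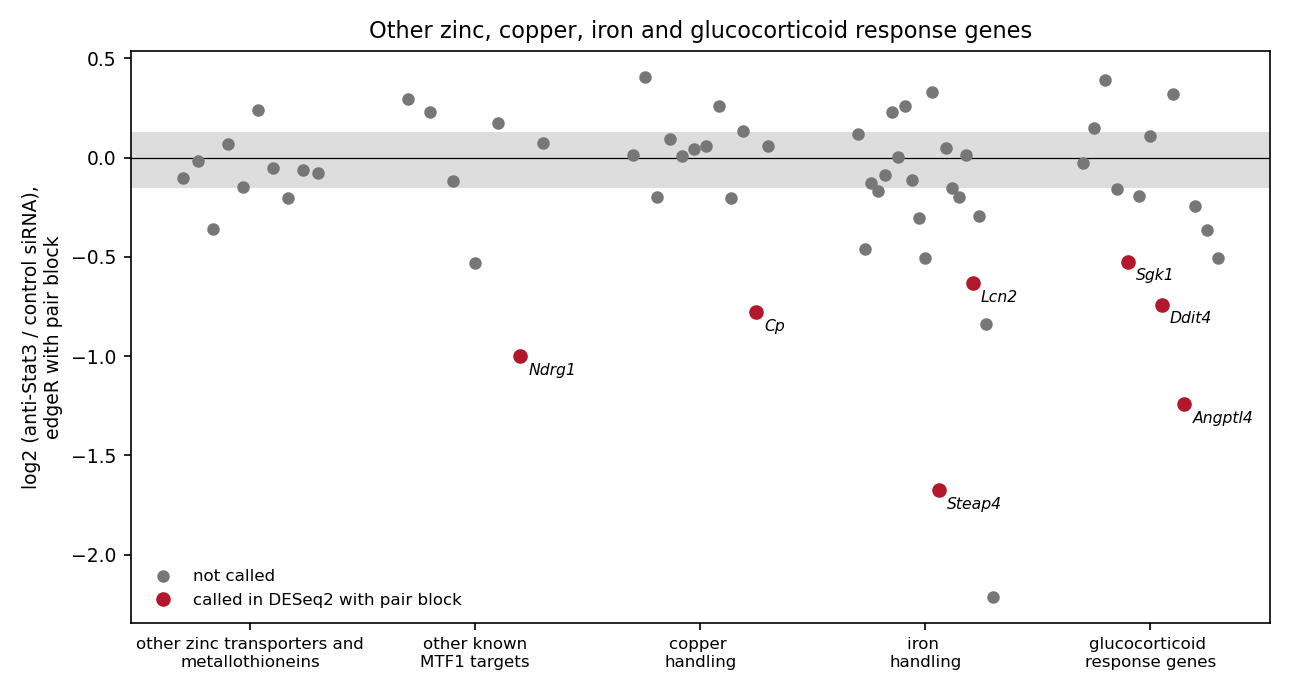
Log2 change fitted by edgeR with the pair as a block for the tested genes of 5 lists (1 point per gene, a gene in 2 lists is drawn in both), with the middle 50% of all genes tested in grey. Genes called in blocked DESeq2 are red and named: all 7 lie below 0, and none is a zinc transporter.

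Of the genes next to the metallothionein cluster, 1 passed a test. The 6 protein-coding genes on each side, in RefSeq order and chosen once the values of Mt1 and Mt2 were known, gave 10 that were tested. In blocked edgeR 9 of them had log2 changes between -0.33 (Gnao1) and 0.25 (Cpne2) and were called in none of the 3 fits with the block. Nup93, the neighbour of Mt1 and a subunit of the nuclear pore, had a log2 change of -0.02 ± 0.10, and Bbs2, the first tested gene on the other side, one of -0.04 ± 0.15 (SE). The exception was Nlrc5, an activator of MHC class I genes known to be induced by interferon, which rose by 3.12 ± 0.89 on the log2 scale (SE, blocked DESeq2, adjusted p = 0.032). Blocked DESeq2 called 1.66% of all genes. DESeq2 with the group alone also called Nlrc5 (adjusted p = 0.0022), with 0.128% of all genes called. It was not called in blocked edgeR (adjusted p = 0.17) or limma-voom with the block (adjusted p = 0.12). Its pair changes were 0.98, 3.89 and 4.16.

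**Figure D5:**
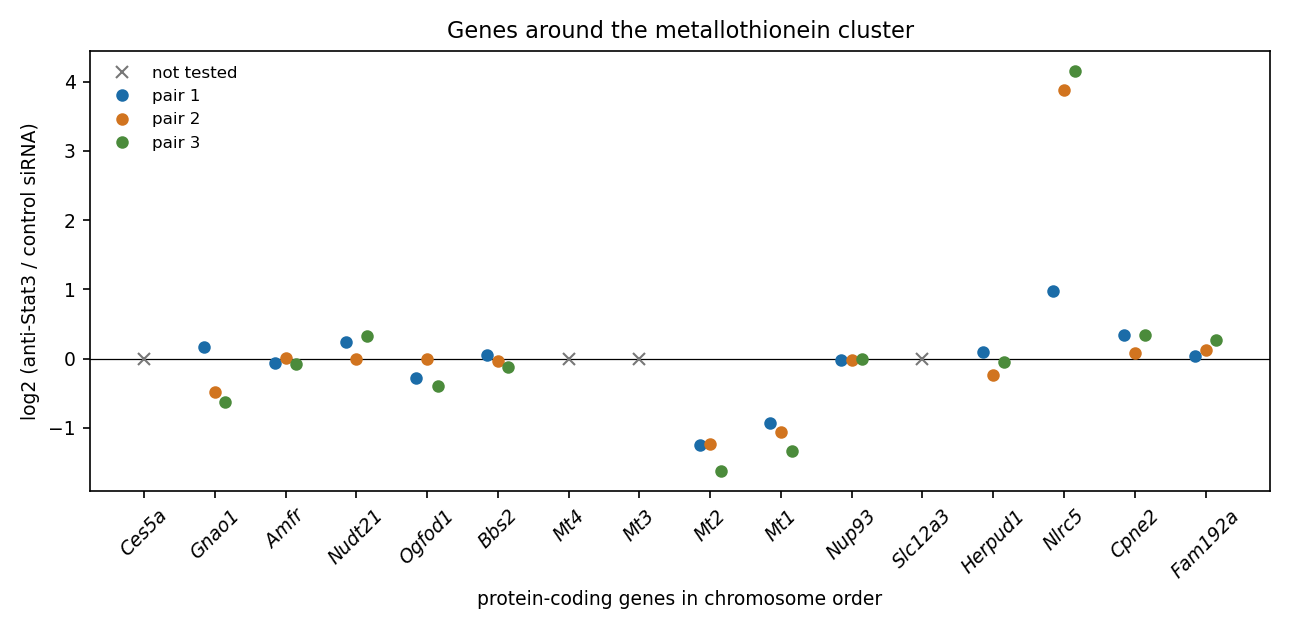
Log2 of anti-Stat3 over control siRNA in each pair for Mt1 to Mt4 and the 6 protein-coding genes on either side, in chromosome order and not to scale (crosses mark genes that were not tested). Mt1 and Mt2 lie below -0.9 in each pair, Nlrc5 lies above 0.98, and the fitted changes of the other neighbours lie between -0.33 and 0.25.

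Over the 6 samples the log2 levels of Mt1 and Mt2 had a Pearson correlation of 0.98. Among 11911 other genes whose mean log2 CPM reached 1, patterns much like the mean of Mt1 and Mt2 were those of Map3k6 (r = 0.994), Fam129c (0.981), Mthfd1l (0.981), Smap1 (0.976) and Abcc3 (0.972). The points share libraries, pairs and the siRNA contrast, so these values are a description. The changes of these genes were smaller than those of Mt1 and Mt2: Map3k6, a kinase of the MAPK cascade, had pair changes of -0.36, -0.33 and -0.47, and Mthfd1l, a mitochondrial folate enzyme, had -0.23, -0.34 and -0.62. None of these 5 genes was called in blocked edgeR or blocked DESeq2.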

How the data were processed

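Libraries were prepared from poly(A) RNA (TruSeq), per the labels' protocols. TopHat2 2.0.10, HTSeq and mm9 are named in the submitters' processing notes. The authors deposited raw counts per gene symbol, without normalisation. Strandedness was not given in the sources used here. All 6 count columns were matched to samples by group and number, which left 0 unused. The columns are headed shCtrl and shStat3, whereas the sample titles say siC and siS3, and the reason is not given.

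The counts were analysed with edgeR 4.0.16 in R 4.3.3, by its quasi-likelihood test (TMM scaling, filterByExpr at a count of 10 and a sum of 15, which kept 13284 genes, Benjamini-Hochberg threshold 0.05) and the group as the only term. Alternatives were the pair as a block, DESeq2 1.42.0, limma-voom (limma 3.58.1), other scaling, no filter and samples left out. The SE in edgeR is the log2 change over the root of F. Pair changes are differences of log2 CPM with a prior count of 2. No permutation test was run, because the smallest two-sided p that 3 against 3 without pairs allows is 0.1. Swaps within the 3 pairs allow fewer arrangements and no smaller p. On data simulated with these differences between pairs, the fits with the block called most of the planted changes and edgeR with the group alone called none. The planted changes were the same in each pair and the scatter was the same for all genes, unlike in these data. The simulation shows only that differences between pairs can hide such changes from edgeR with the group alone. It cannot tell why that fit called none here. At the lowest depth, a count of 0 allows up to 0.231 CPM (3 counts, counting error only).

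Same-numbered samples had correlated departures from their groups (r = 0.83, 0.82 and 0.83), whereas other combinations gave -0.16 or less, so the numbers in the titles were taken as pairs. In the labels pair 3 is described under other library names than pairs 1 and 2, and this naming and pair 3 cannot be told apart.

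Transcript lengths came from the GENCODE annotation and promoters and gene order from RefSeq, both on GRCm38. The members and lists were chosen with earlier results of these data known. Genes are named if they are members, if they belong to a list and were called or had its smallest p (so that each list has 2 or more), or if they are among the 6 most correlated with Mt1 and Mt2, of which 1 is not reported here. Wfdc2, Hp and the neighbours were chosen after values were seen.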

Additional observations from a re-analysis of the deposited data

How the results depend on the processing

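With the group alone edgeR called 0 genes, 0 members and 0 of the other zinc, metal and glucocorticoid genes, and so it did with DESeq2 size factors, upper quartile scaling and no filter on low counts. With the replicate block (the pairs), edgeR called 8 genes and 2 members, limma-voom 8 and 2, and DESeq2 220 genes, 2 members and 7 of the other genes. DESeq2 with the group alone called 17 genes and 0 members. With single samples or whole pairs left out, the counts ranged from 0 to 703 genes, 0 to 3 members and 0 to 9 other genes, with 40 genes and 0 members in edgeR with the group alone without the control of pair 1. DESeq2 with the block called 432, 14 and 20 genes, 3, 2 and 2 members and 7, 1 and 2 other genes without pairs 1, 2 and 3, and edgeR with the block 703, 3 and 0 genes. Differences between pairs were called for 5519 genes and 5 members, and with single samples left out, an alternative chosen after seeing the data, for 2823 to 6147 genes and 2 to 6 members. Other scaling, limma-voom and no filter gave 5461 to 5930 genes and 5 members each.

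Mt1, Mt2, Slc39a14 and Slc30a5 kept a negative log2 change in each alternative run, with ranges over left-out samples or pairs of -1.87 to -0.30, -1.92 to -0.79, -1.47 to -0.65 and -0.14 to -0.0080. The other members changed sign, and the cause was not tested: the ranges were -0.26 to 0.011 for Mtf1, -0.24 to 0.13 for Slc39a8, -0.20 to 0.38 for Slc39a10, -0.32 to 0.19 for Slc39a6, -0.30 to 0.0070 for Slc30a1 and -0.31 to 0.32 for Slc30a4. Without a filter on low counts the change of Slc39a8 was 0.00052. With the block, that of Slc39a8 was 0.0011 in edgeR and -0.0038 in DESeq2 without pair 2, and 0.087 and 0.092 without pair 3. That of Slc39a10 in edgeR and DESeq2 was -0.016 and -0.018 without pair 1 and -0.042 and -0.044 without pair 2, and that of Slc30a4 -0.136 in both without pair 2. With DESeq2 size factors the levels of Mt1 and Mt2 per kb moved by less than their SD; the Mt2 share is a ratio within a sample and does not depend on scaling.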
